A study of Mus musculus with 6 samples.

Results

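The genes examined were those of 10 enzymes that remove superoxide and peroxides: the superoxide dismutases Sod1 and Sod2, catalase (Cat), the glutathione peroxidases Gpx1 and Gpx4, and the peroxiredoxins Prdx1, Prdx2, Prdx3, Prdx5 and Prdx6. They were taken by symbol from the 21878 genes of the deposited expression table, with no threshold on their values, and all 10 passed the filter that left 12889 genes for testing. By the usual site of the protein, 5 belong to the cytosol (Sod1, Gpx1, Prdx1, Prdx2, Prdx6), 2 to the mitochondrion (Sod2, Prdx3) and 1 to the peroxisome (Cat), while Gpx4 and Prdx5 have forms in more than one compartment.

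Superoxide is a by-product of respiration and of several oxidases. Superoxide dismutases turn it into hydrogen peroxide, which catalase splits into water and oxygen and which glutathione peroxidases and peroxiredoxins reduce with electrons from glutathione or thioredoxin. Neurons use much oxygen and hold membranes rich in polyunsaturated lipids, and Gpx4, which reduces lipid peroxides in membranes, is known for holding back ferroptosis, a form of cell death.

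RNA came from HT22, an immortalized line derived from mouse hippocampal neurons, which is a dividing line and not a primary neuron. The Al group was treated with 120 µM aluminum maltolate, a soluble complex of aluminum with the chelator maltol, for 24 h (the time the methods give for treatment), and the control group was not given aluminum, with 3 biological replicates each. The treated samples carry only the letter M in their labels, and the sequenced comparison group is called control. The methods use that name for cells in medium alone and list a maltol control separately. With a control in medium alone, effects of maltol and of aluminum cannot be told apart in these libraries. The 6 libraries were the input libraries of an m6A immunoprecipitation experiment, that is fragmented RNA before enrichment. The question they answer is which RNAs differ after aluminum maltolate.

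The libraries of the Al group were shallower, with 21033283 to 26559984 reads on the listed genes against 37863226 to 44331362 in the control group. Their RNA was also more concentrated in few genes. The 50 most abundant genes held 30.0% to 32.5% of the summed FPKM in the Al group and 18% to 19.4% in the control group. Of 12 neuronal marker genes only Tubb3 and Eno2 had a mean of at least 1 FPKM, and Rbfox3, Map2, Snap25 and Dcx were at or near 0 in every library, so the neuronal label was not borne out by its defining markers. Of 8 fibroblast or mesenchymal markers, 7 reached that level, and their summed FPKM was 3580 to 5206 in control and 4065 to 5250.1 in Al cells. Col1a1, Col1a2, Col3a1 and Vim made up nearly all of this sum. Among the scarcer ones, Pdgfra ranged over 8.5 to 17 FPKM in control and 2.66 to 6.21 in Al cells, and Dcn over 3.77 to 13.4 and 1.24 to 2.29, both without overlap. These are FPKM as deposited, by which 50.1% of all tested genes lay wholly lower in the Al group. The 6 astrocyte markers summed to 14.1 to 23.4 FPKM in control and 1.58 to 2.71 in Al cells, nearly all of it Slc1a3, with Aqp4 at 0 throughout. Microglial markers summed to 39.4 to 49.0 and 22.3 to 72.6 FPKM, nearly all of it Tmem119, with P2ry12 at 0 throughout. Oligodendrocyte and endothelial markers stayed at or below 1.31 FPKM in sum. The part of depth, composition or these markers in the results that follow was not tested.

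Gpx1 and Gpx4 differ from the other 8 enzymes in the codon of their active site, which is shown here because the translation of such RNAs depends on a dedicated set of genes described further on. Both read a TGA codon, normally a stop, as selenocysteine. In the mouse annotation of GENCODE on GRCm38, Gpx1-201 has 1 such codon, number 47 of 201 (chromosome 9, 108339451 to 108339453, plus strand), and the coding transcript Gpx4-201 has 1, number 129 of 253 (chromosome 10, 80054737 to 80054739, plus strand). The coding sequence around each, 5′ to 3′ with the selenocysteine codon in capitals, reads as follows.
Gpx1: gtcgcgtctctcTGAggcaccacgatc
Gpx4: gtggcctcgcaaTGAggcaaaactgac
No such codon is annotated in the coding sequences of Sod1, Sod2, Cat, Prdx1, Prdx2, Prdx3, Prdx5 or Prdx6. The coding sequences of Gpx1 and Gpx4 were 62.9% identical over 566 aligned bases, those of Prdx1 and Prdx2 70.0% identical over 597 bases, and those of Sod1 and Sod2, which are unrelated proteins, 63.3% over 458 bases. Near-identical copies, of at least 90% identity over at least 50% of the coding sequence, were found for Sod1 (1 pseudogene), Gpx4 (2) and Prdx1 (2). None of these pseudogenes is listed in the expression table, and the values of the 3 genes are uncertain to the extent that the counting shared their reads with these copies.

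Promoter sequence bears on these genes because several are known targets of Nrf2, which binds the antioxidant response element. Windows from 250 bases before to 50 bases after the transcription start were taken from RefSeq (GRCm38.p6) for 9 of the 10 genes. The core of the element, TGACNNNGC searched on both strands, was present in the windows of Prdx1 and Sod1, 2 of the 12 windows of these genes, some of which have several, and in 12.4% of all 32851 windows. Both matches lie on the strand opposite to the gene and overlap none of the other motifs searched. The core in Prdx1 also contains TGACTCA, the motif of AP-1. The matches are written along the matching strand with the core in capitals.
Prdx1, chr4:116685458-116685482: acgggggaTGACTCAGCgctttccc
Sod1, chr16:90220698-90220722: cctgagtcTGACCACGCccaccttg
The GC box GGGCGG was found in 11 of the 12, at least once for each gene, and in 35.7% of all windows. The CCAAT box was found in 6 of the 12, all belonging to Cat, Gpx4, Sod1 and Sod2, and in 37.4% of all windows, and the window of Cat held 4 matches, which 1.06% of windows reached. The forkhead motif TGTTTAC was found in 0 of the 12 and in 3.65% of windows. A match describes these letters in this window and is not evidence that a factor binds there.

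In control cells the enzymes covered a wide range of RNA levels. Levels are given as FPKM, reads relative to transcript length and library depth, divided by a size factor per library that equalizes the median gene (scaled FPKM). Prdx1, the main cytosolic peroxiredoxin, stood at 252 ± 28.3 scaled FPKM (SD, n = 3), followed by Sod1, the cytosolic copper and zinc dismutase, at 166 ± 14.4. Gpx4 at 106 ± 11.3 and Prdx2 at 102 ± 5.93 overlapped each other. Below them came Gpx1 (76.5 ± 8.0), Prdx5 (65.3 ± 3.94), Prdx6 (52.5 ± 1.03), Prdx3 (44.0 ± 0.947), Sod2 (23.1 ± 1.36) and Cat (15.5 ± 0.918), and no neighbours among these overlapped in their 3 values. In the Al group the order from the top was Prdx1, Sod1, Gpx1, Prdx2, Gpx4, Prdx5, Prdx6, Prdx3, Sod2 and Cat. Gpx1 had moved from the fifth place to the third and overlapped both Sod1 and Prdx2. Gpx4 lay just above Prdx5 and Prdx3 just above Sod2 in their 3 values, Sod2 lay well above Cat, and the remaining neighbours overlapped. The replicates of the Al group were more spread, with coefficients of variation of 17.4% to 41.2% against 1.96% to 11.2% in the control group.

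**Figure D1:**
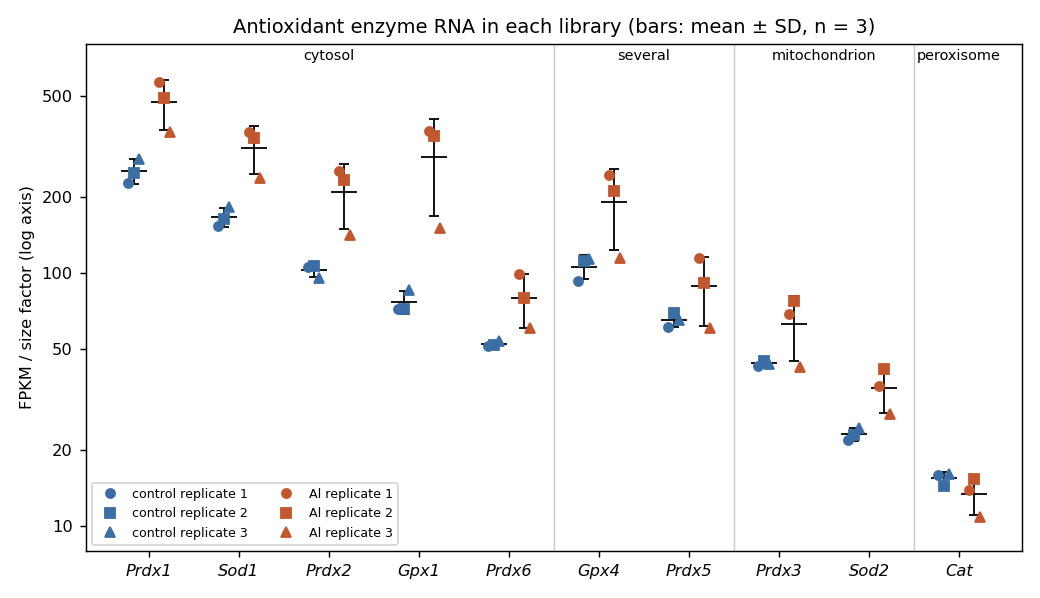
FPKM divided by the size factor (log axis) of the 10 enzyme genes, grouped by compartment, in the 3 control libraries (blue) and the 3 Al libraries (orange), with marker shapes for the replicates and black bars for mean ± SD (n = 3). Al replicate 3 (orange triangles) is the lowest Al library for each of the 10 genes, and Gpx1 shows the widest gap, from 76.5 ± 8.0 to 286 ± 118.

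Compared with the control group, 6 of the 10 genes rose in the Al group and 0 fell, by limma's moderated test on log2(scaled FPKM + 0.1) with a Benjamini-Hochberg adjusted P under 0.05 and a log2 fold change beyond 0.58 in size. The same rule called 25.5% of all 12889 tested genes higher and 23.7% lower. Among the 4225 genes with a mean at least that of Cat, the scarcest of the 10, it called 37.7% higher and 13% lower. The median log2 fold change of the 10 genes was 0.68, against 0.03 for all tested genes and 0.34 for those 4225. The 3 values of the Al group lay wholly above those of the control group for 7 of the 10 genes, as they did for 35.1% of all tested genes, and wholly below for 0 of the 10 and 33.1% of all. On the deposited scale they lay above for 4 (Sod1, Gpx1, Prdx1 and Prdx2) and below for 1 (Cat), against 20.1% and 50.1% of all tested genes. In bulk RNA, a lower level in each cell and fewer cells of a kind that holds the RNA cannot be told apart. Of the 6, only Gpx1 was called under each of the 4 scalings tried, and the other 5 lost their call under each of the other 3, as described further on. Sod2 was also not called without control replicate 1 (0.53), control replicate 2 (0.56), Al replicate 1 (0.56) or Al replicate 2 (0.46). Nor was it called with 1 added in place of 0.1 before the log2 (0.57). Gpx4 was called only without Al replicate 3 among the fits that left out 1 library. It fell under the fold threshold without Al replicate 1, at 0.56. In the other fits that lost the call Gpx4 stayed at 0.67 to 0.82, with limma adjusted P of 0.0545 to 0.0938. Without Al replicate 3 the number called rose to 9.

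Gpx1, the widespread cytosolic glutathione peroxidase, had the largest change of the 10. The gene lies on chromosome 9 from 108339080 to 108340342 (GRCm38.p6, as are the positions that follow). Its scaled FPKM was 72.0, 71.8 and 85.7 in control libraries against 363, 345 and 150.4 in Al libraries. The lowest Al library still stood above the highest control library, but Al replicate 3 lay far under the other Al libraries. The log2 fold change was 1.80 (standard error, SE, 0.30; limma adjusted P = 0.000975), or 3.74-fold between the group means. It was 2.22 without Al replicate 3 and at least 1.58 with any other library left out. The reads behind Gpx1 numbered 3379 to 4669 in control libraries against 3083 to 8077 in Al libraries.

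Gpx4, the lipid peroxide reductase on chromosome 10 (80047166 to 80056439), had 93.0, 111 and 114 scaled FPKM in control libraries against 244, 211 and 115 in Al libraries. The groups did not overlap, by the narrow gap between control replicate 3 and Al replicate 3. With FPKM as deposited they overlapped, since Al replicate 3 (106) lay below all control libraries (109.7, 134 and 133). The log2 fold change was 0.78 (SE 0.26, limma adjusted P = 0.0268), and it was -0.01 when all libraries were scaled to the same sum (TPM). At the same fold it was not called by limma without the trend (adjusted P = 0.0580) or without the filter on low values (adjusted P = 0.0633).

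Of the dismutases, Sod1 on chromosome 16 (90220762 to 90226333) had 153, 164 and 181 scaled FPKM in control libraries against 359, 341 and 236 in Al libraries. The groups were clearly apart, and they were apart with FPKM as deposited as well. The log2 fold change of Sod1 was 0.89 (SE 0.18, limma adjusted P = 0.00251), which came to 0.40 on the deposited scale, 0.11 by TPM and 0.19 after quantile normalization and was then not called. Sod2, the manganese enzyme of the mitochondrial matrix, encoded on chromosome 17 (13007839 to 13018119), had 21.9, 22.9 and 24.5 in control libraries against 35.8, 41.8 and 27.6 in Al libraries. These groups did not overlap either, but they did with FPKM as deposited (25.8, 27.5 and 28.7 against 28.6, 33.9 and 25.7). Its log2 fold change of 0.583 (SE 0.15, limma adjusted P = 0.00814) lay just inside the fold threshold, and with TPM it turned to -0.20.

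Among the peroxiredoxins, Prdx1 and Prdx2, both cytosolic enzymes that thioredoxin recycles, rose. Prdx1 lies on chromosome 4 (116685599 to 116700000) and Prdx2 on chromosome 8 (84969622 to 84974811). Prdx1 had 226, 249 and 282 scaled FPKM in control libraries against 567, 489 and 359 in Al libraries. Prdx2 had 105, 106 and 95.4 in control libraries against 252, 232 and 141 in Al libraries. Neither gene's groups overlapped, with the size factors or on the deposited scale. On the deposited scale the gaps were narrow. The highest control and lowest Al values there were 329 and 333 for Prdx1, and 128 and 131 for Prdx2. The log2 fold change was 0.88 for Prdx1 (SE 0.20, limma adjusted P = 0.00423) and 0.98 for Prdx2 (SE 0.21, limma adjusted P = 0.00332). Neither was called on the deposited scale (0.40 and 0.49), by TPM (0.10 and 0.20) or after quantile normalization (0.14 and 0.31).

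Prdx6, a cytosolic peroxiredoxin that relies on glutathione and also has phospholipase activity, lay just outside the fold threshold. It is encoded on chromosome 1 (161240112 to 161251210). It had 51.7, 52.1 and 53.6 scaled FPKM in control libraries against 98.9, 80.0 and 60.8 in Al libraries. The groups did not overlap, and the log2 fold change was 0.578 (SE 0.16, limma adjusted P = 0.0138), which turned to -0.21 with TPM. The values of Sod2 and Prdx6, on either side of the threshold, thus differed by less than the standard error of either.

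Prdx3, the peroxiredoxin of the mitochondrial matrix, was not called, nor was Prdx5, and both genes lie on chromosome 19 (60864066 to 60874538 and 6906697 to 6910106). Prdx3 had 43.1, 45.0 and 43.8 scaled FPKM in control libraries against 68.8, 77.5 and 42.6 in Al libraries. Al replicates 1 and 2 lay above the control libraries and Al replicate 3 below them, with a log2 fold change of 0.47 (SE 0.20, limma adjusted P = 0.0662) that became -0.02 on the deposited scale and -0.31 by TPM. Prdx5, which is found in mitochondria, peroxisomes and cytosol, had 61.4, 69.2 and 65.2 in control libraries against 114.5, 91.0 and 60.8 in Al libraries. It showed the same split of the Al libraries, with a log2 fold change of 0.40 (SE 0.21, limma adjusted P = 0.121) that was below 0 with FPKM as deposited (-0.09), by TPM (-0.39) and after quantile normalization (-0.11). Without Al replicate 3 both were called, at 0.74 for Prdx3 and 0.66 for Prdx5, whereas Prdx3 came to 0.31 without Al replicate 2 and Prdx5 to 0.19 without Al replicate 1.

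Cat, the peroxisomal catalase, was not called with median-of-ratios scaling and was the only one of the 10 below 0 there. Its gene lies on chromosome 2 (103453904 to 103485153). Its scaled FPKM was 16.0, 14.5 and 16.1 in control libraries against 14, 15.4 and 10.9 in Al libraries, and the groups overlapped. The log2 fold change was -0.22 (SE 0.14, limma adjusted P = 0.189), with a 95% interval from -0.54 to 0.09. Leaving out Al replicate 3 brought it to -0.07, closer to 0 than any other library left out. With FPKM as deposited it had 18.9, 17.4 and 18.9 in control libraries against 11.2, 12.5 and 10.1 in Al libraries. On that scale all Al libraries lay below all control libraries, and Cat was called lower (-0.71), as it was with TPM (-1.01). The value of Cat rested on 543 to 759 reads in the Al libraries and 1833 to 2143 in the control libraries.

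How the libraries were scaled decided most of these calls. Relative to median-of-ratios scaling, FPKM as deposited moved the median over all tested genes by -0.46 and TPM by -0.75, while quantile normalization shifted it by -0.06. Gpx1 was called higher in all 4 fits (1.80, 1.31 on the deposited scale, 1.01 by TPM and 1.18 after quantile normalization), and it was the only one of the 10 called higher in the other 3. Of all tested genes, 13.5% were called higher and 41.3% lower on the deposited scale, 8.85% and 52.2% by TPM, and 21.5% and 23.3% after quantile normalization. Read against the median of all tested genes within each fit, 9 of the 10 genes stood above it and Cat below it with median-of-ratios scaling, as deposited and with TPM. Gpx1 then stood 1.73 to 1.77 above the median, Prdx2 0.91 to 0.95, Sod1 0.82 to 0.86, Prdx1 0.81 to 0.85 and Gpx4 0.70 to 0.74, while Cat stood at -0.29 to -0.25. These 3 fits differ by 1 factor per library, which moves all genes nearly alike. Their near-equal values were therefore fixed in advance and are not 3 separate results. Quantile normalization, which gives every library the same distribution of values, left Gpx1 at 1.21 above the median, Sod2 at 0.38 and Prdx2 at 0.33. It brought Sod1 to 0.22, Prdx1 to 0.17 and Gpx4 to 0.13, with Prdx5 at -0.09 and Cat at -0.27.

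**Figure D2:**
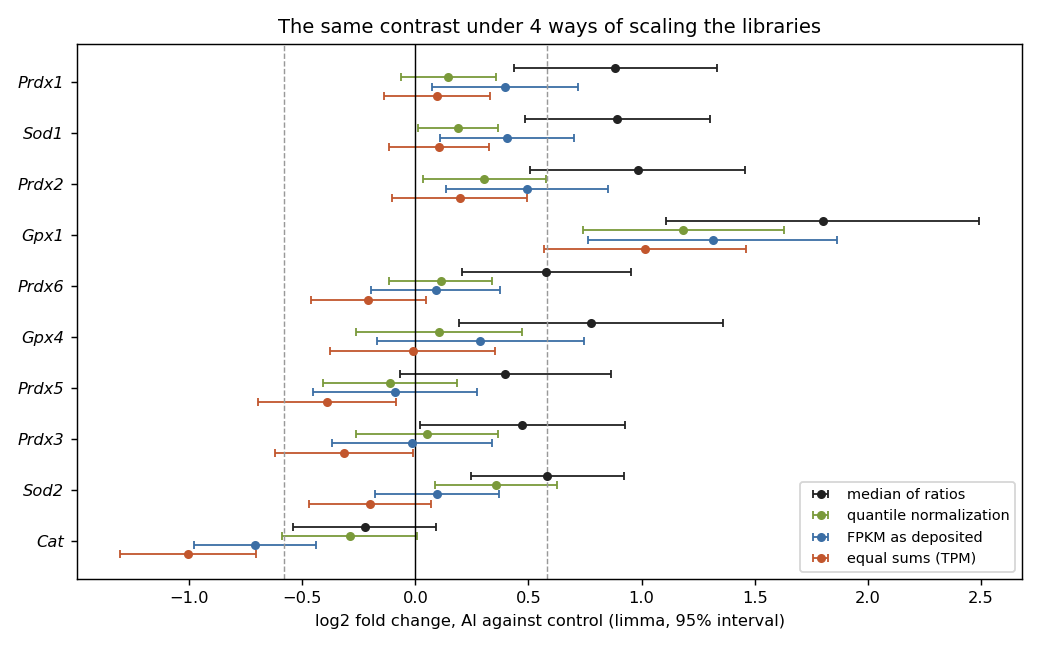
Log2 fold change of the Al group against the control group from limma, with 95% intervals, for each of the 10 genes under 4 ways of scaling the libraries (colours); dashed lines mark the fold threshold of 0.58 in either direction. Only Gpx1 is called higher under all 4, from 1.01 with TPM to 1.80 with median-of-ratios scaling, and Cat is left of 0 under all 4, from -1.01 to -0.22.

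Ratios of 2 genes within a library do not change when a library is scaled by 1 factor, as in 3 of the 4 fits, and 10 of them were compared. Quantile normalization is not such a factor, and its values are given beside those of the other fits. An exact permutation test of 3 against 3 libraries cannot go below a two-sided P of 0.1, and the 7 ratios that reached it had an adjusted P of 0.143 over the 10. How often other gene pairs separate was not computed. Of single tested genes, 35.1% lay wholly higher in the Al group and 33.1% wholly lower after median-of-ratios scaling. Cat to Gpx1 was 0.222, 0.202 and 0.188 in control libraries against 0.0385, 0.0447 and 0.0721 in Al libraries (exact permutation P = 0.1). This ratio sets the peroxisomal against a cytosolic enzyme for hydrogen peroxide. Its log2 difference was -2.03, or 4.08-fold lower in the Al group, and the groups were far apart (-1.48 after quantile normalization). Cat to Sod1 went from 0.0941 ± 0.00922 to 0.0433 ± 0.00388 (SD, n = 3; exact permutation P = 0.1), a log2 difference of -1.12 that came to -0.48 after quantile normalization. Gpx4 to Gpx1 went from 1.39 ± 0.139 to 0.682 ± 0.0757 (exact permutation P = 0.1; log2 difference after quantile normalization -1.08). Gpx4 RNA was thus the more abundant of the 2 glutathione peroxidases in every control library and Gpx1 RNA in every Al library.

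Mitochondrial members were set against their cytosolic counterparts in the same way. Sod2 to Sod1 was 0.143, 0.140 and 0.135 in control libraries against 0.0998, 0.122 and 0.117 in Al libraries, without overlap (exact permutation P = 0.1). The log2 difference was -0.31, but quantile normalization turned it to 0.17, so its direction depended on the processing. Prdx3 to Prdx1 went from 0.176 ± 0.0183 to 0.133 ± 0.0222, and the groups overlapped (exact permutation P = 0.2; log2 difference -0.41, or -0.09 after quantile normalization). The thioredoxins and thioredoxin reductases that serve them differed in the same direction. Txn2 to Txn1, mitochondrial to cytosolic thioredoxin, went from 0.367 ± 0.0215 to 0.186 ± 0.0195 (log2 difference -0.98), and Txnrd2 to Txnrd1 from 0.17 ± 0.0141 to 0.0987 ± 0.0259 (log2 difference -0.81), both without overlap (exact permutation P = 0.1 each). Quantile normalization left -0.74 for the first and -0.22 for the second. Within the cytosol, Prdx6 to Prdx1 was lower in all Al libraries (log2 difference -0.31, or -0.03 after quantile normalization; exact permutation P = 0.1), whereas Prdx2 to Prdx1 (0.10, exact permutation P = 0.6; 0.16 after quantile normalization) and Prdx5 to Prdx3 (-0.07, exact permutation P = 0.8; -0.16 after quantile normalization) overlapped.

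**Figure D3:**
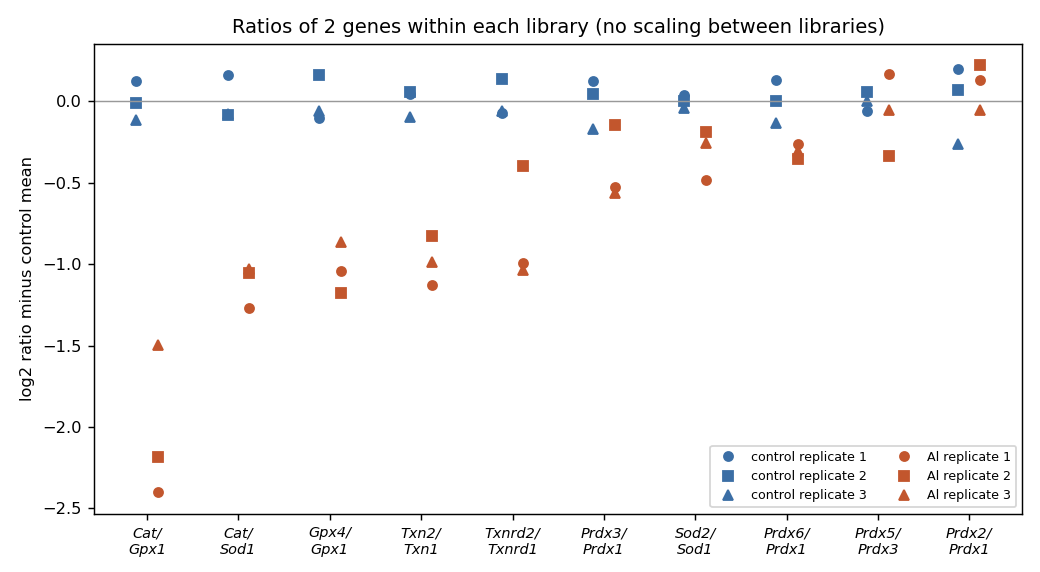
Log2 ratio of 2 genes within each library, minus the mean of the 3 control libraries, for 10 ratios; blue marks control and orange marks Al libraries, with shapes for the replicates. The Al libraries lie wholly below the control libraries for 7 ratios, farthest for Cat/Gpx1 (-2.03), and overlap them for Prdx3/Prdx1, Prdx5/Prdx3 and Prdx2/Prdx1. No other gene pairs were compared.

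Seen as shares of the summed FPKM of the 10 genes, the cytosolic enzymes held 72.1%, 71.0% and 72.6% in control libraries against 77.5%, 77.3% and 78.7% in Al libraries. The mitochondrial pair held 7.44% ± 0.303 in control and 5.66% ± 0.645 in Al cells (SD, n = 3), Gpx4 and Prdx5 together 19.0% ± 0.860 and 15.7% ± 1.18, and Cat 1.73% ± 0.155 and 0.788% ± 0.122. None of these shares overlapped between the groups on this scale, which 1 factor per library does not change. The exact permutation P was 0.1 each, the smallest possible. Among the cytosolic genes, Gpx1 had the largest gain in share, and the cytosolic share with Gpx1 left out was not computed. Gpx1 went from 8.47% ± 0.497 to 15.9% ± 2.94, while the share of Prdx6, also cytosolic, went from 5.82% ± 0.285 to 4.63% ± 0.448, and the shares of Sod1, Prdx1 and Prdx2 overlapped. Shares add to a whole, so that a larger share of Gpx1 by itself lowers the others. The 10 genes together took 0.286% ± 0.00888 of all FPKM in control and 0.314% ± 0.0479 in Al cells, and these overlapped (exact permutation P = 0.4). With Gpx4 counted as cytosolic and Prdx5 as mitochondrial, the cytosolic share was 83.6% ± 0.724 and 88.5% ± 0.432 and the mitochondrial share 14.7% ± 0.684 and 10.7% ± 0.321. After quantile normalization the mitochondrial shares overlapped, at 6.70% ± 0.160 and 6.22% ± 0.694 (exact permutation P = 0.4), and Cat held 1.43% ± 0.113 and 0.971% ± 0.0781 without overlap (exact permutation P = 0.1).

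Of 14 relatives of the 10 enzymes, 6 were abundant enough to test. Sod3, the secreted dismutase, rose from 42.1, 38.0 and 43.8 scaled FPKM to 150.6, 132 and 82.7, with no overlap and a log2 fold change of 1.51 (SE 0.20, limma adjusted P = 0.000280). Prdx4, the peroxiredoxin of the endoplasmic reticulum, rose by 1.27. Ccs, the chaperone that loads copper into Sod1, fell from 21.9, 24.3 and 19.6 scaled FPKM to 10.1, 10.4 and 9.50, with a log2 fold change of -1.12. Sod1 and its copper chaperone thus lay on opposite sides of 0. Ccs was called lower under all 4 scalings, whereas Sod1 was above 0 under all 4 and called under median-of-ratios scaling alone. Gpx7 (-0.32), Gpx8 (0.47) and Pxdn (0.41) were not called. Gpx2, Gpx3, Gpx5, Gpx6, Prdx6b, Mpo, Lpo and Epx lay below the level needed for the test.

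The genes that supply the enzymes with reducing power and metals were read from 9 lists, which hold 105 tested genes when each is counted once. Of these, 25 were called higher and 37 lower. That is 23.8% and 35.2% of them, against 25.5% and 23.7% of all tested genes. FPKM as deposited and TPM shift the median of all genes downward. Under each of the other 3 scalings, 3 of the 25 (12%) and 27 of the 37 (73%) kept their call and direction, against 32.4% and 83.6% of the higher and lower calls among all tested genes. The 3 were Sod3, Atox1 and Hmox1. For all other genes of these lists named as higher, Prdx4 included, the call was lost under at least 1 scaling. Of those named as lower, Pstk (-0.56), Ero1lb (-0.52) and Ppargc1b (-0.36) were not called after quantile normalization.

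In the thioredoxin and glutaredoxin systems, which recycle peroxiredoxins, 6 of 16 genes were higher and 5 lower, with a median log2 fold change of 0.11. The other 3 scalings called 0 or 1 higher and 4 to 8 lower. Txn1, cytosolic thioredoxin, was higher by 1.32 and Glrx5, a mitochondrial glutaredoxin of iron-sulfur cluster assembly, by 1.02. Txnrd3 (-1.93), Glrx (-1.41) and Sesn3 (-0.97) were lower. Of 10 tested genes of glutathione synthesis and reduction, 2 were higher and 4 lower (median -0.43), or 0 to 1 and 4 to 6 under the other scalings. These included Slc7a11, the cystine importer, at -0.98, Gclc, the catalytic subunit of the rate-limiting enzyme, at -0.88 and Chac1, which degrades glutathione, at -1.32, while Oplah was at 1.42 and Slc3a2, the partner of Slc7a11, at 0.64 (-0.15 with TPM). Of 14 genes of NADPH supply, 2 were higher and 3 lower (median -0.11; 0 to 1 and 4 to 9 under the other scalings), with H6pd at -1.43, Idh1 at -1.21 and Mthfd2 at -0.68 against Me2 at 0.90 and Mthfd1 at 0.71 (-0.08 with TPM).

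Selenoprotein synthesis, on which Gpx1 and Gpx4 depend, had 1 of 10 genes higher and 3 lower (median -0.29), or 0 to 2 and 2 to 8 under the other scalings. Eefsec, the elongation factor that delivers selenocysteine to the TGA codon, was at -1.28, Pstk, a kinase that acts on the selenocysteine tRNA, at -0.85 and Lrp8, a receptor for selenoprotein P, at -0.69, while Sepsecs, which makes selenocysteine on its tRNA, was at 0.61 (-0.17 with TPM). Of 9 tested genes of copper and manganese supply, 3 were higher and 5 lower (median -0.69), or 1 to 2 and 4 to 6 under the other scalings. Atox1, a copper chaperone to the secretory pathway, was at 1.68 and higher under all 4 scalings, whereas Ccs, the copper transporter gene Slc31a2 (-1.08) and Tmem165 (-0.99), a manganese transporter of the Golgi, were lower under all 4. Slc25a39, a mitochondrial carrier, was at 0.78, or -0.01 with TPM. The plasma membrane copper importer Slc31a1, sixth in size on this list, was at -0.74.

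The peroxisome list, the surroundings of catalase, had 12 of 22 genes lower and 3 higher, with a median of -0.62. Under the other scalings 8 to 17 were lower and 0 to 2 higher. The importers and transporters Pex7 (-3.05), Abcd3 (-2.05), Pex13 (-1.72) and Pex14 (-1.32) were lower under all 4 scalings, although Pex7 rested on as few as 7 reads in an Al library. Sources of superoxide and hydrogen peroxide had 2 of 9 tested genes higher, Noxo1 (1.31) and Cyba (0.82), and 2 lower, Maoa (-0.92) and Ero1lb (-0.70), with a median of 0.19, or 0 to 1 and 1 to 4 under the other scalings. Of 10 regulators and reference targets, 4 were higher and 3 lower (median 0.12), or 1 to 3 and 1 to 5 under the other scalings. Hmox1, a classical target of Nrf2, was at 2.35, Bach1, a repressor of such targets, at 1.25 and Nqo1 at 1.08. Ppargc1b stood at -0.66 and Nfe2l2, the gene of Nrf2, at 0.66 (-0.13 with TPM). Hmox1 and Nqo1 were the only reference targets on this list. Gclc (-0.88) and Slc7a11 (-0.98), from the glutathione list with 2 genes higher and 4 lower, went the other way.

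**Figure D4:**
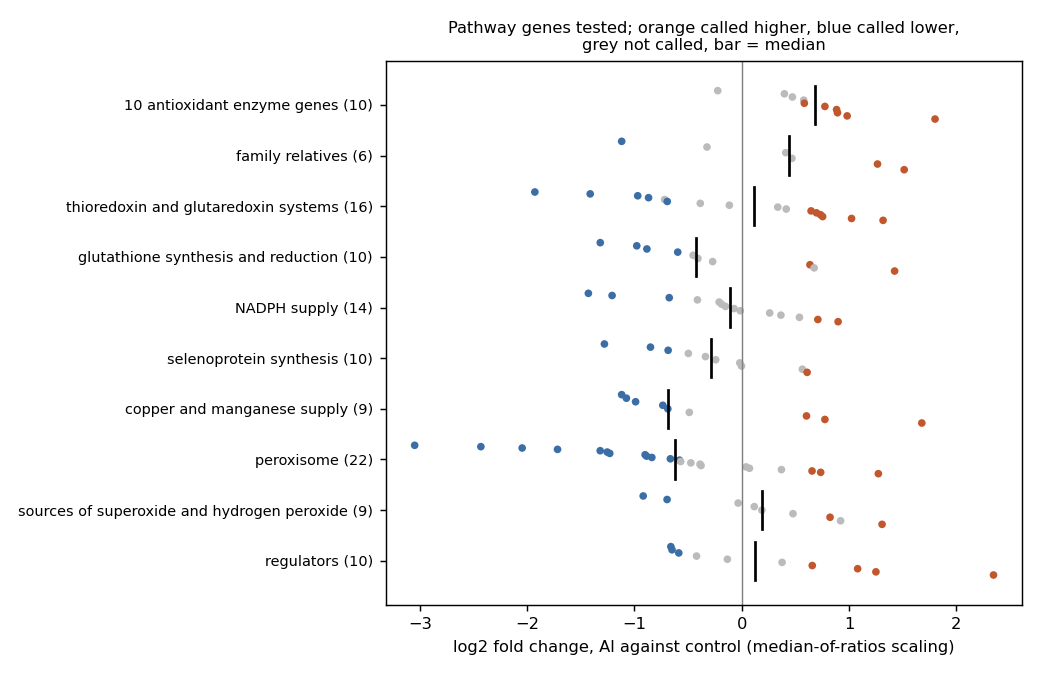
Log2 fold change of each tested gene, Al group against control group with median-of-ratios scaling, for the 10 enzyme genes (top) and 9 lists of related genes, with the number tested in parentheses; orange points were called higher, blue points lower and grey points not called, and a black bar marks each median. The 10 enzyme genes have a median of 0.68 and the peroxisome list one of -0.62.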

How the data were processed

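RNA was measured in 6 input libraries, 3 control and 3 Al. The deposited values are FPKM, which the authors computed per gene symbol and library with no further scaling. Their methods name Trimmomatic, SortMeRNA and HISAT2 with GRCm38/mm10, the submitters' processing notes name fastp, HISAT2, HTSeq and GRCm39, and the annotation is not given in the sources used here. The authors' differential test was DESeq2 on counts, which was not run here. The treated samples were taken as the Al group because the study's expression table gives their values under that name.

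FPKM were divided by median-of-ratios size factors (0.799 to 1.20) computed on genes detected in every library whose mean FPKM reached 1. Testing used the 12889 genes whose mean FPKM reached 0.1, by limma 3.58.1 (R 4.3.3; lmFit, eBayes with a trend) after adding 0.1 as pseudocount and taking log2. This pseudocount slightly understates the change of scarce genes. P values were adjusted by the Benjamini-Hochberg method over all tested genes, and calls needed both an adjusted P under 0.05 and a log2 fold change beyond 0.58 in size. Whole reads were recovered from the steps of the FPKM values for 17680 of 17688 genes above 0 (tolerance 0.0001 reads), up to a common divisor with the gene length, so depths are given as recovered. P values measure the spread between these samples. Every one of the 10 genes was named, and of the lists the called genes, at most the 5 largest per list. Relatives of the 10 enzymes that were not called and genes of the ratios were also named, and Slc31a1 was named after its value was seen. The values of 1 gene of the peroxisome list are not reported here. The genes and lists were chosen with earlier results of these data known. The fit was tested on simulated data with changes larger than that of any of the 10 genes, so the test does not bear on changes near the fold threshold. Alternatives covered the scaling, pseudocount, filter, trend, replicate block, thresholds, each library left out and limma voom on recovered reads; the ratios and compartment shares under quantile normalization were added after the data had been seen. Loci and promoters came from RefSeq, codons from GENCODE, and copies from minimap2 2.31-r1302.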

Additional observations from a re-analysis of the deposited data

How the results depend on the processing

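Scaling moved the calls most. On the deposited scale, by TPM and after quantile normalization, 1 of the 10 genes was called higher in place of 6, and with FPKM as deposited and TPM 1 was called lower in place of 0. Of the log2 fold changes, those with TPM turned negative for Sod2 (-0.20), Gpx4 (-0.012), Prdx3 (-0.31), Prdx5 (-0.39) and Prdx6 (-0.21), those with FPKM as deposited for Prdx3 (-0.015) and Prdx5 (-0.090), and that with quantile normalization for Prdx5 (-0.11). Of the 105 pathway genes, 10 were called higher on the deposited scale, 3 by TPM and 15 after quantile normalization in place of 25, and 55, 63 and 28 were called lower in place of 37. Over all tested genes, higher calls made up 51.9% of the calls with median-of-ratios scaling, 24.6% on the deposited scale, 14.5% by TPM and 48.0% after quantile normalization. The deposited scale gave 1736 higher and 5321 lower genes and TPM 1141 and 6734, against 3291 and 3053. Between 4 and 9 of the 10 genes were called higher with 1 library left out, and 0 lower. Between 5 and 7 were called with the other pseudocounts, filters and thresholds, without the trend, and with limma voom on the recovered reads, which called 3324 genes higher and 3031 lower. The replicate block gave 6 higher and 0 lower, and 25.2% and 23.3% of all tested genes. Same-numbered libraries did not deviate together (correlations of -0.0737, -0.0568 and -0.108). With so few libraries this cannot settle whether those of the same number were handled together. With 1 library left out, the log2 difference of Prdx2 to Prdx1 ranged from -0.034 to 0.198 and that of Prdx5 to Prdx3 from -0.195 to 0.056, both around 0. The other 8 ratios kept their direction with each library left out. Quantile normalization, added for the ratios and shares after the data had been seen, turned Sod2 to Sod1 from -0.31 to 0.17 and no other ratio, and made the differences in share 3.82 percentage points for the cytosol, -0.48 for the mitochondrion (with overlap) and -0.46 for the peroxisome in place of 5.94, -1.78 and -0.94. With Gpx4 placed in the cytosol and Prdx5 in the mitochondrion, the share of the cytosol differed by 4.89 percentage points in place of 5.94 and that of the mitochondrion by -3.95 in place of -1.78. The cause of these shifts between scalings was not tested. With 3 libraries a group, differences of the size of those of Prdx3 and Prdx5 lay within the spread between Al libraries.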
